A study of Mus musculus with 36 samples.

Results

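The genes described here are 10 that mark hepatic stellate cells or their activation: Acta2, Tagln, Des, Lrat, Pdgfra, Pdgfrb, Rgs5, Reln, Hand2 and Cygb. They were taken by symbol from the deposited gene counts, which list 24421 genes in each of 36 liver libraries, and all 10 were found in every library. Stellate cells are the vitamin A-storing pericytes of the liver sinusoid. In an injured liver they lose their retinyl ester droplets, gain contractile filaments and become the myofibroblasts that lay down most of the scar matrix, and platelet-derived growth factor (PDGF) drives their growth and migration. When the injury ends, part of these cells die and the others return to a state close to rest.

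All livers came from male C57BL/6J mice, bought at 7 weeks of age, and every mouse had first eaten CDAHFD, a choline-deficient, amino acid-defined high-fat diet that leaves a fatty and fibrotic liver, for 12 weeks. In the HFD experiment the diet was then changed to a plain high-fat one (HFD), and over 2 weeks the mice were given a weekly subcutaneous injection, either the Fc fragment alone at 4.3 mg/kg (n = 10) or Fc(mML1)B3 at 5 mg/kg (n = 10). Fc(mML1)B3 is an Fc fragment with a macrocyclic peptide grafted into a surface loop that binds and activates mouse Met, the receptor of hepatocyte growth factor. In the standard diet experiment the mice ate a standard diet for 10 days and were injected on days 1, 4 and 7, 9 of them with Fc and 7 with Fc(mML1)B3 at the same doses. No liver from before the injections or from a mouse without CDAHFD is among the 4 groups, so all levels below are levels after a fibrosis-inducing diet. Diet, length of treatment and dosing scheme changed together between the experiments and cannot be told apart.

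The libraries held between 14949035 and 28466853 reads assigned to genes, and a read here is 1 end of a pair. The values below are CPM, reads scaled to a fixed library total, after TMM scaling, a factor per library that sets most genes level, and levels of different genes are compared only per kilobase of exon (RPKM). The index numbers in the library names fall into 5 runs, and the labels do not say what a run stands for. In the HFD experiment no run holds both proteins, so run and protein cannot be told apart there. In the standard diet experiment 1 run holds all 7 Fc(mML1)B3 libraries and 4 of the Fc libraries, and values within it are given below. The labelled tissue is whole liver, and 7 hepatocyte genes such as Alb and Cps1 together took 76860 to 151067 CPM in every library. In such bulk RNA fewer stellate cells and less RNA per stellate cell cannot be told apart.

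Each of the 10 genes was detected in every library, with 28 reads or more. Per kilobase, Cygb, the gene of cytoglobin, a haem protein that binds oxygen and nitric oxide, stood highest in each group. Its mean level was 27.9 ± 6.46 RPKM (SD, n = 10) in Fc mice on HFD, 19.1 ± 7.55 (n = 10) with Fc(mML1)B3 on HFD, 12.5 ± 3.04 (n = 9) in Fc mice on the standard diet and 11.4 ± 2.50 (n = 7) with Fc(mML1)B3 on the standard diet. Acta2, the gene of α-smooth muscle actin, was the lowest of the 10 in 3 of the groups, with 2.74 ± 0.968 RPKM in Fc mice on HFD and 1.07 ± 0.223 in Fc mice on the standard diet. With Fc(mML1)B3 on HFD the lowest was Des, at 2.88 ± 1.46 RPKM, beside Acta2 at 3.46 ± 3.76 RPKM. This order rests on mouse 5, described below. Without it Acta2 had a mean of 5.92 CPM on 2572 exon bases and Des 7.49 CPM on 3065. Acta2 was then the lowest per kilobase in this group too. Neighbours in the order mostly differed by less than their spread over mice. In Fc mice on HFD the steps from Cygb to Tagln and from Tagln to Hand2 exceeded the larger SD of the pair, and the steps from Hand2 through Pdgfrb, Reln, Lrat, Rgs5, Pdgfra and Des to Acta2 did not.

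The other actin genes show what the low Acta2 level stands beside. Actb, a cytoskeletal actin of all cells, had a mean of 608 RPKM in Fc mice on HFD and Actg1, the other cytoskeletal actin, 80.4 RPKM. The muscle actins Acta1, Actc1 and Actg2 had at most 0.597 RPKM on average in any group. None of the 100-base stretches of the annotated transcripts of the 10 genes (GENCODE M21, GRCm38) stands unchanged in an annotated transcript of another gene. Matches with mismatches and copies outside the annotation were not searched. The check alone therefore does not show that every actin read was assigned to the right gene. Exons of Tagln share 5.99% of their length with Pcsk7 and those of Des 7.24% with Gm15179, in each case on the opposite strand, and Pdgfra shares 0.445% with Mir7025 on the same strand. Counting ignored strand, and reads that fell in several genes were left out of the counts.

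The sequence before the start of transcription was available in RefSeq's promoter table (GRCm38.p6) for 7 of the 10 genes. It is shown for Acta2, the gene that differed most between the experiments, for Des, the filament gene called with Fc(mML1)B3 on the standard diet, and for Reln, the steadiest gene on that diet, each as the 250 bases that end 1 base before the start. Capitals mark CArG boxes with at most 1 letter off, the element that serum response factor binds in muscle genes, and GGGCGG on either strand, the core of the GC box.
Acta2, chr19:34255374-34255623, minus strand: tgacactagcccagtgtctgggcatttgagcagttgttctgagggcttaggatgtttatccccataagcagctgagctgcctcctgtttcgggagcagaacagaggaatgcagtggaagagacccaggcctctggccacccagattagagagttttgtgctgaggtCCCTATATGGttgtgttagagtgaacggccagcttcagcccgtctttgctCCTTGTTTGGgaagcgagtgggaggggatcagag
Des, chr1:75360042-75360291, plus strand: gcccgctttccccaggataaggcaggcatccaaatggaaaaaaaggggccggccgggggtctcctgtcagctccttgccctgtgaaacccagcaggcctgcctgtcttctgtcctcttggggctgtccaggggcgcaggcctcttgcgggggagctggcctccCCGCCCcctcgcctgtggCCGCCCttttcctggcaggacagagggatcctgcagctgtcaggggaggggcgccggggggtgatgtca
Reln, chr5:22344706-22344955, minus strand: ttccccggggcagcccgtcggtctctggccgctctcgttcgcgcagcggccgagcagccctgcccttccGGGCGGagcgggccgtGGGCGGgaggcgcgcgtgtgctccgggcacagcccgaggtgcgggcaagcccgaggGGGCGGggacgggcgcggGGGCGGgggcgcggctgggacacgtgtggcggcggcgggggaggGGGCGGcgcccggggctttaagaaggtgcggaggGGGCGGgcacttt
The Acta2 sequence held 2 such CArG boxes, 84 to 75 and 34 to 25 bases before the start, and no GGGCGG. The Reln sequence held 6 GGGCGG and no CArG box of this kind, and the Des sequence 2 GGGCGG. Of 32851 promoter sequences of the same length, 18.6% held a CArG box with at most 1 letter off and 32.7% held GGGCGG, so neither is rare. A CArG box with every letter matched stood in 0 of the 7 sequences and in 1.47% of all. Among the others, Lrat had 1 CArG box with 1 letter off, and TATAAA was in 0 of the 7 against 12.4% of all. CATTCC, searched for its use by TEAD factors, was found in Acta2 and Lrat and in 12.6% of all, and CANNTG, the E box that factors such as Hand2 bind, in 6 of the 7 and in 66.2% of all. All motifs were searched on both strands with overlaps counted, and the CArG search with 1 letter off was added after the strict search had found none and the Acta2 sequence had been read. These matches describe letters and were not tested for binding.

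**Figure D1:**
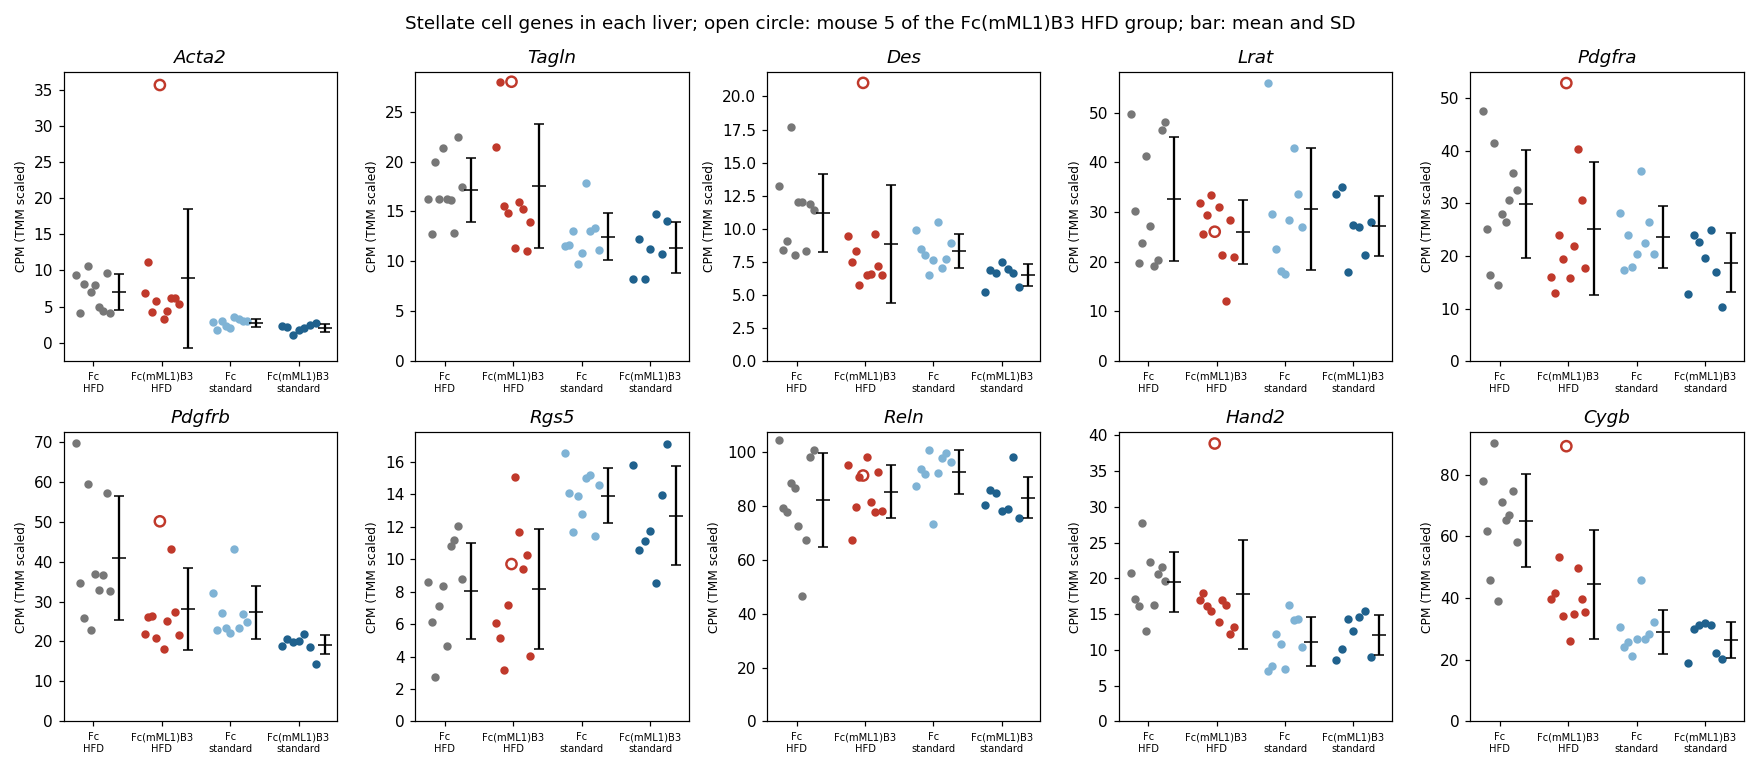
TMM-scaled CPM (vertical axis, linear) of the 10 genes in each of the 36 livers, by group; points are mice and the bar gives the mean and SD. In the Fc(mML1)B3 HFD group, mouse 5 (open circle) is the highest of its group for Acta2, Tagln, Des, Pdgfra, Pdgfrb, Hand2 and Cygb. Over all 13299 genes tested on HFD, mouse 5 is the highest of its group for 20.4%. Acta2 is lower in every mouse on the standard diet than in every Fc mouse on HFD.

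1 library stands apart for these genes and is described before the comparisons. In mouse 5 of the Fc(mML1)B3 HFD group Acta2 reached 35.7 CPM, against 3.25 to 11.1 in the other 9 mice. This was 6.23 times their median, and Des stood at 2.94 times, Pdgfra at 2.72 times, Hand2 at 2.41 times and Cygb at 2.24 times the median of the others. Lrat, Reln and Rgs5 of this mouse lay within the range of the others, at 0.917, 1.12 and 1.35 times their median. Over all 13299 genes tested on HFD, this mouse was the highest of its group for 20.4% and mouse 2 for 20.0%. Several genes that mark other cells of the portal tract and of large vessels stood high in the same library. Myh11, the myosin of smooth muscle, was 8.77 times the median of the others, Krt19, a keratin of bile duct cells, 8.23 times, and Actg2 and Cnn1, genes of visceral and vascular smooth muscle, had 114 and 64 reads against a median of 2 reads each. The summed level of 14 smooth muscle and pericyte genes was 127 CPM against 49.6 to 71.3 in the others. Of this sum 69.2 CPM came from the potassium channel subunit Abcc9, at 1.72 times the median of the others. Mouse 5 was the highest of its group for 7 of the 14 genes, while Notch3, Ndufa4l2 and Pln were at 1.18, 1.22 and 1.25 times and Mcam and Rgs4 at 0.725 and 0.293 times the median of the others. The sum of 11 portal fibroblast genes was 234 CPM against 46.9 to 152, and that of 4 cholangiocyte genes 162 CPM against 29.6 to 89.6. The mesothelial, PDGF, contractile, matrix and other stellate cell sums were also the highest of the group, at 2.17, 1.65, 1.36, 1.27 and 1.26 times the median of the others. Of the matrix sum 843 CPM came from Fn1, at 0.710 times the median of the others. Every other gene of the matrix list stood above that median, from Postn at 1.14 times to Mmp2 at 4.32 times. The hepatocyte, endothelial and retinoid sums were the lowest of the group, at 0.611, 0.723 and 0.774 times the median of the others. Of the retinoid sum 3320 CPM came from Rbp4 and 1268 CPM from Aldh1a1, at 0.776 and 0.688 times the median of the others. The other retinoid genes went in both directions, from Cyp26b1 at 0.200 times to Aldh1a2 at 3.52 times. The macrophage sum, at 0.742 times, lay within the range of the others, but its genes differed in direction. The Kupffer cell genes Clec4f and Cd5l were below every other mouse of the group, at 6.59 CPM against 22.6 to 112 and at 27.6 CPM against 45.1 to 172, while Cd68, Csf1r and Itgam were the highest, with Cd68 at 1.94 times the median of the others. The part of these cells in the levels of the 10 genes was not tested. For the proteins on HFD, log2 fold changes of the 10 genes and calls of the lists are given with and without this mouse. Ranges and mean levels hold it unless said otherwise.

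**Figure D2:**
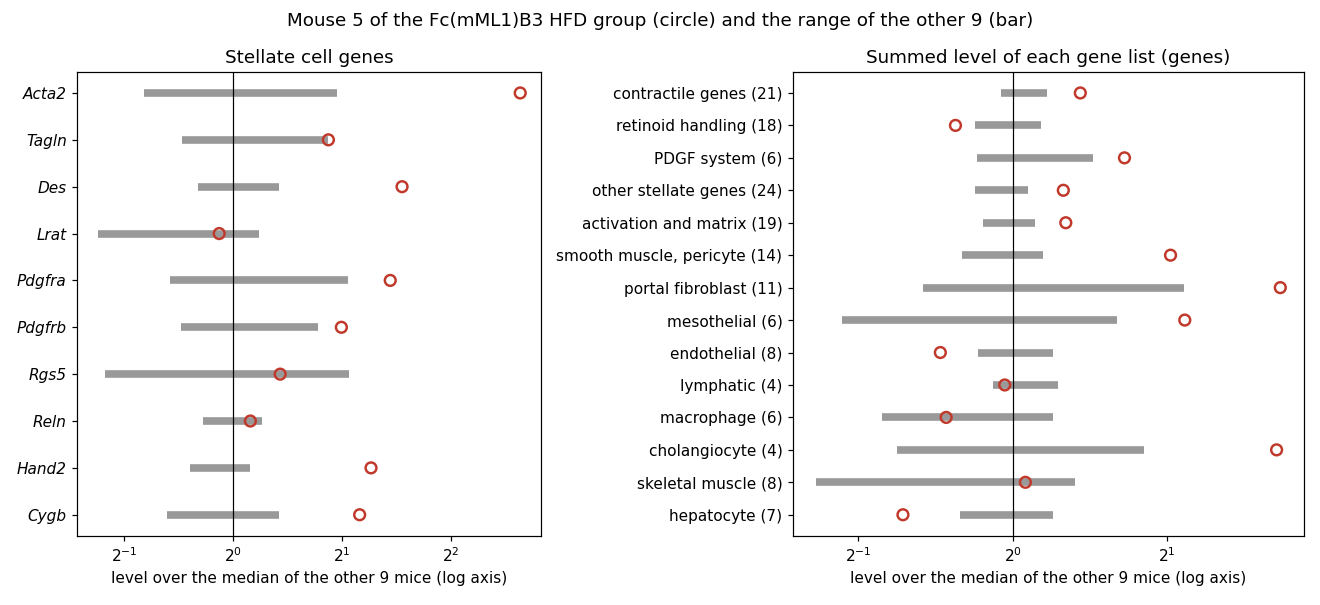
Level in mouse 5 of the Fc(mML1)B3 HFD group (circle) over the median of the other 9 mice, beside their range (grey bar), on a log axis; left, the 10 genes, and right, the summed level of each gene list, with its number of genes. Mouse 5 lies above the others for 7 of the 10 genes, beside 20.4% of all genes tested, while Lrat, Reln and Rgs5 lie within the bar. It lies above them for 8 of the lists, most of all the portal fibroblast and cholangiocyte lists at 3.33 and 3.27 times.

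The first comparison asks what the Met agonist did to these genes while the mice stayed on a fatty diet. With Fc(mML1)B3, Cygb was lower than with Fc, and it was the only 1 of the 10 genes to pass the test (quasi-likelihood test of edgeR, p adjusted after Benjamini and Hochberg over 13299 genes and called under 0.05). Over all genes tested, 6.68% were called lower (889, beside 1083 higher, or 1256 and 472 with library totals in place of TMM factors, where Cygb lost its call). The 10 genes had a median log2 fold change of -0.18, against -0.01 over all genes, and 6 of the 10 lay below 0. Without mouse 5, Cygb, Des, Pdgfrb and Hand2 were called lower, 4 of 10 beside 10.8% of all genes, and 9 of the 10 lay below 0. Mouse 5 was singled out by its values of these same genes. Leaving out the highest Fc(mML1)B3 value of a gene lowers its log2 fold change, so these calls are not independent support.

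Of the filament genes, Acta2 ranged from 4.11 to 10.6 CPM (median 7.50) in Fc mice and from 3.25 to 35.7 CPM (median 5.94) with Fc(mML1)B3. The groups overlapped, and 8 of the 10 mice given Fc(mML1)B3 were below the Fc median. Its log2 fold change was 0.34 (SE 0.35, edgeR adjusted p = 0.552) with mouse 5 and -0.25 (SE 0.21, adjusted p = 0.416) without it, so this mouse set the sign. Tagln, the gene of the actin-binding protein transgelin, ranged from 12.7 to 22.4 CPM (median 16.2) with Fc and from 10.998 to 27.996 CPM (median 15.4) with Fc(mML1)B3, a log2 fold change of 0.04 (SE 0.16, edgeR adjusted p = 0.903) with mouse 5 and -0.07 (SE 0.15, adjusted p = 0.775) without it. The groups overlapped, with 2 Fc(mML1)B3 mice below every Fc mouse and 2, mouse 2 and mouse 5, above every Fc mouse. Des, the gene of the intermediate filament desmin, ranged from 8.01 to 17.7 CPM (median 11.6) with Fc and from 5.74 to 21.0 CPM (median 7.32) with Fc(mML1)B3. With Fc(mML1)B3, all mice but mouse 5 lay below the Fc median, and 6 of them lay below every Fc mouse. Its log2 fold change was -0.34 (SE 0.20, edgeR adjusted p = 0.272) with mouse 5 and -0.57 (SE 0.14, adjusted p = 0.00639) without it.

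The PDGF receptors take the signals that make stellate cells divide and migrate. Pdgfrb, the receptor of PDGF-B and a marker of activated stellate cells, ranged from 22.9 to 69.6 CPM (median 35.6) with Fc and from 18.1 to 50.1 CPM (median 25.6) with Fc(mML1)B3. In 8 of 10 Fc(mML1)B3 mice it lay below the Fc median, and 4 lay below every Fc mouse, while the rest overlapped with the Fc group. The log2 fold change was -0.53 (SE 0.20, edgeR adjusted p = 0.0808) with mouse 5 and -0.67 (SE 0.19, adjusted p = 0.0167) without it. Pdgfra, the receptor that also marks portal and other fibroblasts, ranged from 14.4 to 47.6 CPM (median 29.3) with Fc and from 13.03 to 52.8 CPM (median 20.7) with Fc(mML1)B3. The groups overlapped over nearly all of their range, with a log2 fold change of -0.24 (SE 0.24, edgeR adjusted p = 0.534), or -0.43 (SE 0.21, adjusted p = 0.152) without mouse 5.

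Cygb ranged from 39.0 to 90.3 CPM (median 66.1) with Fc and from 26.1 to 89.3 CPM (median 39.8) with Fc(mML1)B3. With Fc(mML1)B3, all mice but mouse 5 lay below the Fc median, and 4 lay below every Fc mouse. The log2 fold change was -0.55 (SE 0.18, edgeR adjusted p = 0.0394) and, without mouse 5, -0.72 (SE 0.14, adjusted p = 9.13e-04). The call is near the threshold: it was lost in 14 of the 20 fits that left out 1 library, with adjusted p up to 0.0791, while the log2 fold change stayed between -0.72 and -0.48. Hand2, a transcription factor that keeps the resting state of stellate cells, ranged from 12.6 to 27.7 CPM (median 20.1) with Fc and from 12.3 to 38.8 CPM (median 16.2) with Fc(mML1)B3. Here too all mice but mouse 5 lay below the Fc median, and the log2 fold change was -0.13 (SE 0.17, edgeR adjusted p = 0.660) with it and -0.33 (SE 0.11, adjusted p = 0.0403) without it.

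The remaining genes had no call with or without mouse 5. Lrat, whose enzyme makes the retinyl esters that resting stellate cells store, ranged from 19.2 to 49.7 CPM (median 28.7) with Fc and from 12.1 to 33.5 CPM (median 27.2) with Fc(mML1)B3, with a log2 fold change of -0.32 (SE 0.19, edgeR adjusted p = 0.264). Its medians lay close together, the groups overlapped, and the 4 highest values were all in Fc mice. Reln, the gene of the secreted glycoprotein reelin, ranged from 46.6 to 104 CPM (median 82.9) and from 67.4 to 98.3 CPM (median 86.1), a log2 fold change of 0.06 (SE 0.11, edgeR adjusted p = 0.761). Rgs5, a brake on G protein signals and a pericyte marker, ranged from 2.77 to 12.0 CPM (median 8.47) and from 3.17 to 15.04 CPM (median 8.27), a log2 fold change of 0.02 (SE 0.26, edgeR adjusted p = 0.968). For Reln and Rgs5, 5 mice lay on each side of the Fc median. Without mouse 5 the log2 fold changes of Lrat, Reln and Rgs5 were -0.33, 0.04 and -0.02.

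The 2 runs of index numbers among the Fc(mML1)B3 libraries were also set against the Fc libraries apart. Cygb had a log2 fold change of -0.61 with the 4 libraries of 1 run and -0.49 with the 6 of the other, which hold mouse 5. Pdgfrb had -0.77 and -0.38, Des -0.52 and -0.21, and Acta2 -0.01 and 0.55. None of the 10 genes was called in either fit.

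**Figure D3:**
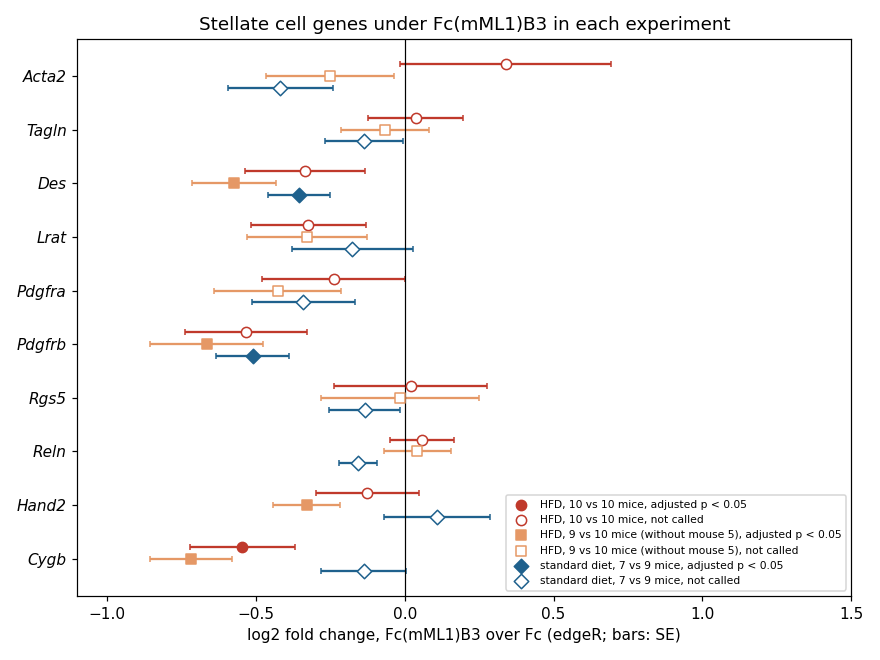
Log2 fold change of the 10 genes, Fc(mML1)B3 over Fc (horizontal axis; bars are SE, edgeR), under HFD with all mice (circles), under HFD without mouse 5 (squares) and under the standard diet (diamonds); filled symbols passed an adjusted p of 0.05. Pdgfrb lies between -0.67 and -0.51 in all fits, and Acta2 lies on the other side of 0 only in the fit that holds mouse 5.

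The gene lists around the members were read in the same fit, in which 6.68% of all genes were lower and 8.14% higher, and without mouse 5 in the fit with 10.8% lower and 10.5% higher. Of 6 genes of PDGF ligands and the proteases that activate them, 2 fell under HFD: Pdgfa, the ligand of the α receptor, by 0.74 on the log2 scale (SE 0.14, edgeR adjusted p = 6.00e-04), and Plat, tissue plasminogen activator, by 0.99 (SE 0.22, adjusted p = 0.00332). Of 24 other stellate cell genes 22 were tested, and 2 were lower and 3 higher, shares close to those of all genes. The lower genes were Ngfr, the nerve growth factor receptor of activated stellate cells, at -0.92 (SE 0.22, edgeR adjusted p = 0.00568), and Pth1r, a hormone receptor, at -0.35. The higher ones were Gata4, a transcription factor of resting stellate cells that endothelial cells also express, at 0.38, Vipr1, a neuropeptide receptor, at 0.45, and Angptl6. Of 15 retinoid handling genes tested, Rarb, a retinoic acid receptor that retinoic acid itself induces, was lower at -0.43 and Stra6l, a retinol transporter, higher at 0.33. Without mouse 5 the PDGF calls were again Pdgfa and Plat, the other stellate cell genes had 3 lower, with Tcf21 added, and 3 higher, and the retinoid genes had 1 lower and 4 higher, with Rbp4, Rdh10 and Aldh1a1 added.

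Of 17 contractile genes tested, the actin cross-linker Actn1 (-0.31) and calponin 2, Cnn2 (-0.44), were lower and Mkl2, a coactivator of serum response factor, was higher (0.41). Without mouse 5, 5 of 18 were lower, with Csrp1, Tpm1 and Tagln2 added, and 1 higher. Of 19 matrix genes of activated stellate cells only Tgfb1, the main fibrogenic cytokine, was called (-0.41, SE 0.12, edgeR adjusted p = 0.0221), while 16 of the 19 lay below 0 with a median of -0.27. Without mouse 5, where calls over all genes also became more frequent, 6 of the 19 were lower, Fbn1, Mmp2, Tgfb1, Col5a2, S100a6 and Lum. Among markers of other cells, Kcnj8, a pericyte channel, was lower (-0.73) and Hnf4a, a hepatocyte factor, was higher (0.37), while no portal fibroblast, mesothelial, endothelial, lymphatic, macrophage, cholangiocyte or skeletal muscle gene was called. Without mouse 5, the portal fibroblast genes Entpd2, Eln and Mfap4, the mesothelial gene Gpm6a and the macrophage gene Cd68 were also lower, and the endothelial gene Oit3 and the hepatocyte gene Cps1 also higher. The portal fibroblast sum had a median of 116 CPM with Fc (51.2 to 202) and 77.0 CPM with Fc(mML1)B3 (46.9 to 234), and 8 of its 9 genes tested lay below 0. Its part in the Cygb result was not tested.

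The second comparison put the same proteins to mice that had gone back to a standard diet. Here Pdgfrb and Des were lower with Fc(mML1)B3, 2 of the 10 genes beside 7.55% of all genes called lower (edgeR's quasi-likelihood test, 13570 genes). Over all genes 1024 were lower and 1162 higher, or 1292 and 777 with library totals, and both members kept their calls there. 9 of the 10 genes lay below 0, with a median log2 fold change of -0.17 against -0.01 over all genes.

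Pdgfrb ranged from 22.2 to 43.0 CPM (median 24.8) with Fc and from 14.4 to 21.97 CPM (median 19.8) with Fc(mML1)B3. The groups did not overlap, though the share of all genes whose groups do not overlap was not counted. The log2 fold change of Pdgfrb was -0.51 (SE 0.12, edgeR adjusted p = 0.00730). It was called in all 16 fits that left out 1 library. Within the run of index numbers that holds both proteins it was -0.63 (SE 0.15, edgeR adjusted p = 0.0193). Among the 4 Fc mice of that run is mouse 6, at 43.0 CPM, where the next Fc value was 32.2 CPM. The fit within the run was not repeated without it. Des ranged from 6.54 to 10.5 CPM (median 8.00) with Fc and from 5.22 to 7.51 CPM (median 6.66) with Fc(mML1)B3. All 7 mice given Fc(mML1)B3 were below the Fc median, with a log2 fold change of -0.36 (SE 0.10, edgeR adjusted p = 0.0239). Within that run it was -0.40 (SE 0.13, adjusted p = 0.0739). The call was lost without mouse 1 or mouse 7 of the Fc(mML1)B3 group, with adjusted p up to 0.0540. Both calls were also lost where the contrast was taken from 1 fit over all 36 libraries, with 0 of the 10 genes called there.

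Acta2 was low in both groups, from 1.81 to 3.59 CPM (median 2.93) with Fc and from 1.04 to 2.74 CPM (median 2.15) with Fc(mML1)B3, which is 28 to 92 reads a library. All 7 mice given Fc(mML1)B3 were below the Fc median. The log2 fold change was -0.42 (SE 0.18, edgeR adjusted p = 0.120), and -0.63 (SE 0.20, adjusted p = 0.0782) within the run, so it did not pass this test, while limma-voom called it at -0.54. Reln ranged from 73.4 to 101 CPM (median 93.8) and from 75.4 to 98.2 CPM (median 80.2), a log2 fold change of -0.16 (SE 0.06, edgeR adjusted p = 0.101). Reln varied least from mouse to mouse, with a coefficient of variation of 8.98% in the Fc group and 9.17% with Fc(mML1)B3. Pdgfra ranged from 17.3 to 36.1 CPM (median 22.5) and from 10.3 to 24.9 CPM (median 19.6), a log2 fold change of -0.34 (SE 0.17, edgeR adjusted p = 0.198). In 3 of the 7 Fc(mML1)B3 mice it lay below every Fc mouse, and the other 4, at 19.6 to 24.9 CPM, lay within the Fc range, 3 of them above the Fc median.

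Of the other genes, Cygb, which was called under HFD, ranged from 21.3 to 45.8 CPM (median 26.7) with Fc and from 18.9 to 31.9 CPM (median 29.8) with Fc(mML1)B3, a log2 fold change of -0.14 (SE 0.14, edgeR adjusted p = 0.555). The median was higher and the mean lower with Fc(mML1)B3, so no direction can be read. Hand2 had a log2 fold change of 0.11 (SE 0.18, edgeR adjusted p = 0.721), with 7.00 to 16.3 CPM in Fc and 8.53 to 15.4 CPM in Fc(mML1)B3 mice, and -0.20 within the run. Tagln (-0.14), Rgs5 (-0.14) and Lrat (-0.18) had overlapping groups and edgeR adjusted p from 0.485 to 0.601.

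Around the members, 6 of 18 contractile genes tested fell under the standard diet, and all 18 lay below 0, with a median of -0.23, in a fit where 7.55% of all genes were lower and 8.56% higher. The 4 with the smallest p were Cald1, which binds actin and myosin, at -0.32 (SE 0.04, edgeR adjusted p = 2.85e-05), the actin cross-linker Flna at -0.36, smoothelin, Smtn, at -0.32, and the focal adhesion gene Vcl at -0.20. Tpm1 and Mkl1 were the other two. The summed level of the list was lower in each Fc(mML1)B3 mouse (671 to 713 CPM) than in each Fc mouse (767 to 856 CPM). How often sums of other genes part in this way was not counted. Of the cytoskeletal actins neither was called: Actb had a log2 fold change of -0.13 (SE 0.05, edgeR adjusted p = 0.102) and Actg1 of 0.06 (SE 0.08, adjusted p = 0.696).

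Of the PDGF list Plat (-0.73) and Pdgfc (-0.47) were lower, and of the other stellate cell genes Ngfr (-0.87, SE 0.11, edgeR adjusted p = 3.17e-05) and Pth1r (-0.24) were lower and the chemokine Cxcl12 higher (0.19). Ngfr, Pth1r and Plat were called lower in both experiments. Of 14 retinoid handling genes tested 3 were lower and 2 higher. Lpl, lipoprotein lipase, was at -0.76, Stra6l at -0.53 and Dhrs3, a retinaldehyde reductase, at -0.41, while Dgat1 and Rbp4 stood at 0.20 each. Of 19 matrix genes Fbn1 (-0.35) and Col5a2 (-0.32) were lower and 17 lay below 0. The counts of lower genes among the 19 matrix and the 24 other stellate cell genes, 2 each, are close to the share over all genes. Among markers of other cells, Eln, elastin, was lower (-1.14, SE 0.20, edgeR adjusted p = 6.97e-04), as was Sox9 (-0.50), while the sinusoidal receptor Fcgr2b (0.18) and the hepatocyte genes Cyp2e1 (0.25) and Cps1 (0.19) were higher. No gene of the smooth muscle and pericyte list was called, nor any mesothelial, lymphatic, macrophage or skeletal muscle gene. The portal fibroblast sum had a median of 70.1 CPM (59.0 to 132.8) with Fc and 62.7 CPM (39.3 to 78.5) with Fc(mML1)B3, and the smooth muscle and pericyte sum 61.2 CPM (54.96 to 65.4) and 55.2 CPM (50.9 to 63.9). All 4 cholangiocyte genes lay below 0, with a median of -0.37. Their sum had a median of 40.0 CPM (30.5 to 56.0) with Fc and 31.1 CPM (18.7 to 43.6) with Fc(mML1)B3. The part of these lists in the Pdgfrb and Des results was not tested.

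A fit over all 36 libraries tested whether Fc(mML1)B3 acted unequally in the experiments. No gene of the 10 passed (edgeR's quasi-likelihood test, 0 of 10 called beside 9.06% of 14105 genes called in either direction, and 0 of 10 also at an unadjusted p under 0.05). limma-voom with quality weights called 1, Cygb, and DESeq2 called 0. For Pdgfrb the difference, standard diet minus HFD, was 0.04 on the log2 scale with a 95% interval from -0.49 to 0.57. For Cygb it was 0.42, from -0.07 to 0.91 (edgeR adjusted p = 0.352), and for Acta2 -0.75, from -1.67 to 0.18 (adjusted p = 0.394). The intervals are wide enough to hold differences as large as the effects themselves, so these data neither separate the experiments nor show that they are alike. Without mouse 5 the difference for Acta2 was -0.15, that for Cygb 0.60 (edgeR adjusted p = 0.0623) and that for Hand2 0.46 (adjusted p = 0.190). Again 0 of the 10 were called, while Cygb (p = 0.00710) and Hand2 (p = 0.0402) passed 0.05 by edgeR before adjustment.

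Between the experiments the levels of most of these genes differed. In Fc mice, Acta2, Tagln, Des, Pdgfrb, Hand2 and Cygb were lower on the standard diet, 6 of 10 beside 24.6% of all genes tested, and Rgs5 was higher, 1 of 10 beside 23.3% (edgeR, 14105 genes). In Fc(mML1)B3 mice, Acta2, Tagln, Pdgfrb, Hand2 and Cygb were lower, 5 of 10 beside 17.9%, and Rgs5 was higher, 1 of 10 beside 20.7%. The comparisons of this kind also compare index runs that have no library in common on HFD and on the standard diet, so run and experiment cannot be told apart.

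Acta2 had the largest difference of the 10. In Fc mice its highest value on the standard diet, 3.59 CPM, lay below its lowest on HFD, 4.11 CPM, and the log2 fold change was -1.37 (SE 0.32, edgeR adjusted p = 6.55e-04), or 0.388 times. In Fc(mML1)B3 mice it was -2.11 (SE 0.36, adjusted p = 1.38e-05), and -1.52 without mouse 5. Its groups did not overlap there either, and the share of all genes whose groups do not overlap was not counted. Cygb followed with -1.17 (SE 0.17, edgeR adjusted p = 9.00e-07) in Fc mice and -0.75 (SE 0.19, adjusted p = 0.00158) in Fc(mML1)B3 mice. Hand2 had -0.81 (SE 0.18, edgeR adjusted p = 4.17e-04) and -0.56 (SE 0.20, adjusted p = 0.0217). In these 3 genes the direction was the same with either protein, and Acta2 and Cygb were called in every fit that left out 1 library.

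Tagln (-0.47 in Fc and -0.63 in Fc(mML1)B3 mice) and Pdgfrb (-0.59 and -0.55) were lower with either protein by edgeR at adjusted p from 0.00269 to 0.0272. Des was called only in Fc mice, at -0.44 (SE 0.17, edgeR adjusted p = 0.0352) against -0.45 (SE 0.19, adjusted p = 0.0593) in Fc(mML1)B3 mice, where the values are almost the same. Its call in Fc mice was lost in 5 of the 36 fits that left out 1 library. Without mouse 5, Pdgfrb (-0.43, edgeR adjusted p = 0.0724) and Hand2 (-0.36, adjusted p = 0.0753) lost their calls in Fc(mML1)B3 mice, and Des was at -0.21.

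Rgs5 went the other way. It had a mean of 8.05 ± 2.96 CPM (SD, n = 10) in Fc mice on HFD and 13.9 ± 1.69 CPM (n = 9) on the standard diet, a log2 fold change of 0.77 (SE 0.22, edgeR adjusted p = 0.00353). In Fc(mML1)B3 mice it was 0.64 (SE 0.23, adjusted p = 0.0260). The other genes were not called with either protein: Lrat had -0.10 and 0.07, Reln 0.16 and -0.04 and Pdgfra -0.34 and -0.43, with edgeR adjusted p from 0.162 to 0.819.

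The lists were read in Fc mice beside the 24.6% of all genes that were lower and the 23.3% that were higher. Of 19 matrix genes 15 were lower and 1 higher, with a median log2 fold change of -0.59, and of 24 other stellate cell genes 15 were lower and 3 higher. Of 9 portal fibroblast genes tested 6 were lower and 0 higher, and of 18 contractile genes 8 were lower and 3 higher. Of 6 PDGF genes 4 were lower and 0 higher. In Fc(mML1)B3 mice, beside 17.9% of all genes lower and 20.7% higher, 9 of the 19 matrix genes were lower and 1 higher, 13 of the 24 other stellate cell genes were lower and 2 higher, and 11 of the 18 contractile genes were lower and 0 higher. Of the portal fibroblast genes 2 of 9 and of the PDGF genes 2 of 6 were lower in these mice, and 0 were higher. Of 4 cholangiocyte genes 1 was lower in Fc mice and 2 in Fc(mML1)B3 mice, and 0 were higher. All 4 lay below 0 in both contrasts, with medians of -0.65 and -0.84. Shares nearer to or below those of all genes were seen in Fc mice in the smooth muscle and pericyte list, with 3 of 9 lower, the retinoid list, with 2 of 15 lower and 3 higher, and the endothelial list, with 1 of 8 lower and 1 higher. The cytoskeletal actins were lower too, Actb by 0.34 and Actg1 by 0.63 on the log2 scale, so Acta2 shared its direction with actins of all cells, and its log2 fold change was the largest of the 3. The median log2 fold change of all genes in this contrast was -0.05 with TMM factors and -0.13 with upper-quartile scaling or library totals, with 4795 and 4470 genes lower and 2523 and 2322 higher in place of 3471 and 3288. The number of the 10 genes called in Fc mice was 7 under both.

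**Figure D4:**
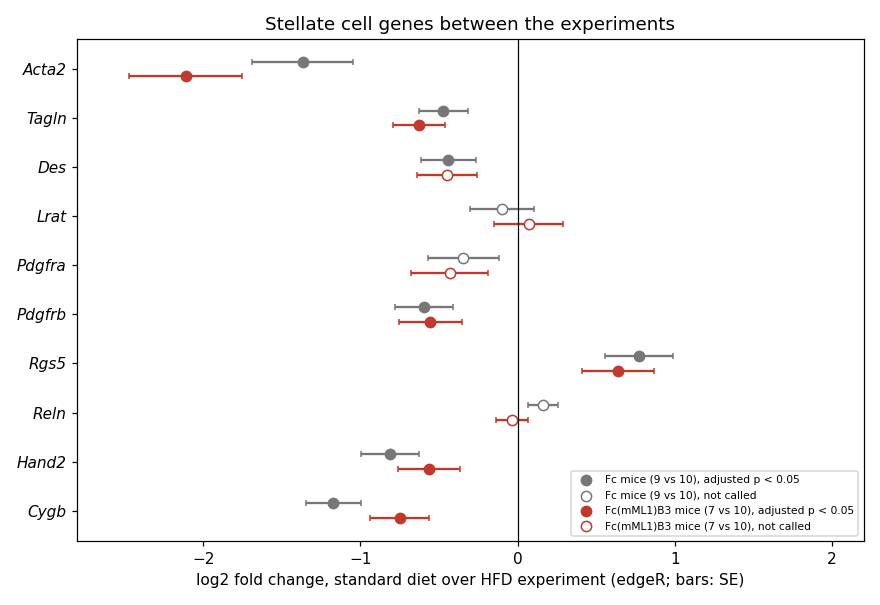
Log2 fold change of the 10 genes, standard diet over HFD experiment (horizontal axis; bars are SE, edgeR), in Fc mice (grey) and in Fc(mML1)B3 mice (red); filled symbols passed an adjusted p of 0.05. Acta2 lies farthest below 0, at -1.37 and -2.11, and Rgs5 is the only gene above 0 that was called.

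The genes were also followed from mouse to mouse, as Pearson's r of log2 CPM over 36 libraries after the mean of each group was removed. These values are a description, since all genes of a library share its tissue piece and depth. Pdgfra, Pdgfrb, Des and Cygb went together: r was 0.88 for Pdgfra and Pdgfrb, 0.84 for Pdgfrb and Cygb, 0.84 for Des and Cygb and 0.84 for Pdgfra and Cygb. Without mouse 5 these were 0.85, 0.81, 0.77 and 0.79. Acta2 and Tagln went together (0.69, or 0.61 without mouse 5) and less with the former, Acta2 having 0.03 with Pdgfra and 0.32 with Des without mouse 5. Hand2 lay between, with 0.70 with Cygb, or 0.57 without mouse 5. Lrat, Reln and Rgs5 had values from -0.16 to 0.27 with the other genes, apart from 0.50 between Lrat and Reln.

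The 3 genes most like each member among 14104 others were also found, by Pearson's r over all 36 mice, and with Spearman's rho at least 1 of these 3 was another gene for each of the 10. For Acta2 they were Myl9, a myosin light chain of smooth muscle (0.78), Rab13 (0.77) and Kcnip3 (0.73), which were 0.58, 0.67 and 0.55 without mouse 5. Without that mouse the 3 were Rab13, Tagln and Upk3b, and by Spearman's rho Rab13, Tagln and Uckl1. For Tagln they were Acta2 (0.69), BC021614 (0.64) and Gipc2 (0.64), which were 0.61, 0.64 and 0.53 without mouse 5. For Des they were Mxra8 (0.87), Olfml3 (0.86) and the bile duct keratin Krt19 (0.85), which stayed at 0.80, 0.79 and 0.74 without mouse 5. For Pdgfra they were the matrix genes Lum (0.95), Thbs2 (0.93) and Pamr1 (0.93), and for Pdgfrb Emp2 (0.92), Nav1 (0.92) and the collagen protease Adamts2 (0.91). For Cygb they were Olfml3 (0.93) and, from the portal fibroblast list, Cd34 (0.93) and Dpt (0.92), and for Hand2 Fam180a, Art4 and Bambi (0.78, 0.78 and 0.77).

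Lrat, Reln and Rgs5 had other companions. For Lrat they were Cyp26b1, which breaks down retinoic acid (0.71), Zfp445 (0.60) and Rarb (0.57). For Reln they were Slco1b2, a bile acid and drug transporter of hepatocytes (0.83), Rmdn2 (0.82) and Pank3 (0.80), while by Spearman's rho they were Bmp5 of the stellate cell list (0.70), Pank3 (0.69) and C2cd2 (0.69). For Rgs5 they were Kctd10 (0.80), Zfyve16 (0.79) and Rcor1 (0.79), with 0.79, 0.79 and 0.80 without mouse 5.

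**Figure D5:**
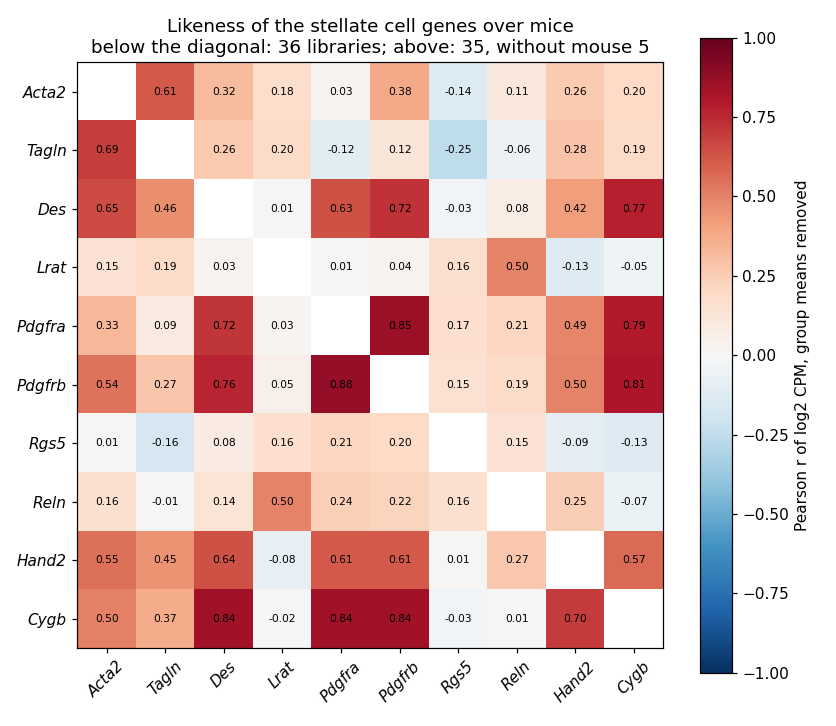
Pearson's r between the 10 genes over mice, after the mean of each group was removed, from log2 CPM; below the diagonal over 36 libraries and above it over 35, without mouse 5. The block of Des, Pdgfra, Pdgfrb and Cygb keeps r from 0.63 to 0.85 without mouse 5, while Lrat, Reln and Rgs5 have values from -0.25 to 0.25 with the other genes, apart from Lrat with Reln at 0.50.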

How the data were processed

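Liver RNA of 36 mice was sequenced, and the authors deposited 1 table of raw gene counts a mouse. Per the labels and file headers, reads were cleaned with fastp and Bowtie2 2.4.5 (ribosomal RNA), aligned to mm10 with STAR 2.7.10a and counted with featureCounts 2.0.3, ignoring strand, leaving out reads with several positions or several genes and counting each end of a pair. The version of fastp was not given in the sources used here.

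Groups came from the sample titles. The deposited counts were fitted with the quasi-likelihood test of edgeR 4.0.16 (R 4.3.3) with TMM factors, filterByExpr and Benjamini-Hochberg adjustment over all genes tested, and an adjusted p under 0.05 was a call. Each experiment was fitted alone, and the difference of effects and the contrasts between experiments came from 1 fit over 36 libraries. The quasi-likelihood test gives no SE. Each edgeR SE was therefore computed as the size of the log2 fold change over the square root of F. The 95% intervals reach 1.96 SE to either side, are approximate and need not match the p-value of the F test. The scripts were tested on simulated data. The study itself used DESeq2 with thresholds on the fold. As an alternative, calls were cut at an adjusted p under 0.1 and a fold of 2 on HFD, and at 0.05 and 1.5 on the standard diet, where the study's text and figure legend give unequal thresholds and those of the legend were taken. Levels in CPM and RPKM were computed from the same counts, and log2 CPM for likeness used a prior count of 2. Total counts ran from 14949035 to 28466853 a library, with group medians from 19023641 to 25968982, and the scarcest of the 10 genes had 28 reads in 1 library, so depth limits Acta2 most.

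The 10 genes and the 14 lists of 151 genes (contractile, retinoid, PDGF, other stellate, matrix, smooth muscle and pericyte, portal fibroblast, mesothelial, endothelial, lymphatic, macrophage, cholangiocyte, skeletal muscle, hepatocyte) were chosen with earlier results of these data known. Named were all 10 genes, from each list the called genes of the comparisons within an experiment, at most 4 by smallest p, the 3 genes most like each of the 10, and the other actins. Angptl6, Rbp4, Tpm1, Mkl1 and the genes named for likeness by Spearman's rho, for the fit without mouse 5 or for that mouse itself were added after their values were seen. Alternatives were DESeq2 1.42.0, limma-voom 3.58.1 with quality weights, other scalings and filters, a replicate block, leaving out each library, and subsets by index run.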

Additional observations from a re-analysis of the deposited data

Results flagged for a closer look

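In 8 of 40 combinations of gene and group, 1 library lay farther from the rest than Dixon's 95% critical value allows. The critical value assumes normal values, while these CPM were not logged. Several of the genes also go together over mice, so the 40 are not independent and no rate is read from the 8. Mouse 5 of the Fc(mML1)B3 HFD group accounts for 4 of the 8, with 35.7 CPM of Acta2, 21.0 CPM of Des, 38.8 CPM of Hand2 and 89.3 CPM of Cygb. Mouse 6 of the Fc standard diet group accounts for 3, with 17.9 CPM of Tagln, 43.0 CPM of Pdgfrb and 45.8 CPM of Cygb, each the highest of its group. In mouse 5 of that same Fc standard diet group Reln was the lowest of its group, at 73.4 CPM.

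None of the 10 genes had an effect of Fc(mML1)B3 that differed between the experiments by the test of the difference, and 6 of all list genes tested did (quasi-likelihood test of edgeR, p adjusted over 14105 genes). This is 4.51%, a smaller share than the 9.06% of all genes. The differences, standard diet minus HFD on the log2 scale, were -0.85 for Stra6l, -0.38 for Dhrs3, -0.52 for Mkl2, -0.44 for Hnf4a, -0.81 for Pdgfc and 0.80 for Pdgfa. Stra6l was lower with Fc(mML1)B3 on the standard diet and higher on HFD. Pdgfa was lower on HFD.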

How the results depend on the processing

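In the HFD experiment, 1 of the 10 genes was called. The number was 0 with the thresholds of the study, with library totals, with the replicate block and with either index run of Fc(mML1)B3 libraries, 2 in the fit over all libraries (Pdgfrb and Cygb) and 3 with limma-voom (Des, Pdgfrb and Cygb). On the standard diet, 2 were called, against 0 with the thresholds of the study, 0 in the fit over all libraries, 1 with the replicate block (Pdgfrb) and 1 within the index run that holds both proteins. For the difference of effects the number was 0, and 1 (Cygb) with limma-voom. Leaving out 1 library gave 0 to 4 calls on HFD, 1 to 3 on the standard diet, 0 for the difference, 6 to 7 in Fc mice and 4 to 7 in Fc(mML1)B3 mice between experiments.

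The sign turned in these cases, on the log2 scale, and the cause was not tested. On HFD, Acta2 was at -0.24 with limma-voom and -0.00684 with the 4 libraries of 1 index run. Tagln was at -0.10 with limma-voom, -0.044 with library totals, -0.013 with the block and -0.10 with the other 6 libraries, where Pdgfra was at 0.019. Rgs5 was at -0.028 with limma-voom, -0.020 with upper-quartile scaling, -0.0765 with library totals, -0.021 with the block and -0.58 with the 4 libraries. Reln was at -0.039 with library totals. On the standard diet, Hand2 was at -0.20 within the index run. For the difference of effects, Des was at 0.19 with limma-voom, 5.08e-04 with library totals and 0.016 with the block, and Pdgfra at 0.087 with limma-voom and 0.035 with the block. Between experiments in Fc(mML1)B3 mice, Lrat was at -0.016 with upper-quartile scaling. Leaving out 1 library gave ranges across 0 on HFD for Acta2 (-0.25 to 0.43), Tagln (-0.067 to 0.10), Rgs5 (-0.12 to 0.12) and Reln (-0.00869 to 0.10), for the difference of effects for Des (-0.12 to 0.24), Pdgfra (-0.19 to 0.11), Pdgfrb (-0.089 to 0.18) and Rgs5 (-0.23 to 3.68e-05), and for Lrat in Fc mice (-0.24 to 3.01e-04) and in Fc(mML1)B3 mice (-0.018 to 0.15).

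Over all genes, lower and higher calls on HFD were 889 and 1083, against 90 and 88 with the thresholds of the study, 1396 and 1643 with limma-voom, 563 and 731 with the block, 1591 and 1542 in the fit over all libraries, and 1446 lower and 1402 higher without mouse 5. On the standard diet 1024 and 1162 became 583 and 713 with the block, to 178 lower and fewer higher with the thresholds of the study, and to 326 and 459 in the fit over all libraries. Same-numbered libraries did not deviate together (median r -0.05 on HFD and -0.09 on the standard diet, none of 10 and of 7 best with its own number), so the numbers do not pair the mice.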
